A study of Mus musculus with 9 samples.

Results

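The mitochondrial respiratory chain passes electrons from the tricarboxylic acid cycle to oxygen and uses the proton gradient this builds to make ATP. The genes described here encode the nuclear subunits of complex II (succinate dehydrogenase), complex III (cytochrome bc1 complex), complex IV (cytochrome c oxidase) and complex V (ATP synthase). They were chosen by symbol: Sdha to Sdhd, Cyc1, and every gene whose symbol began with Uqcr, Cox4i, Cox5, Cox6, Cox7, Cox8 or Atp5, pseudogenes left out. The rule found 48 of the 24421 genes in the count table, namely 4 genes of complex II, 9 of complex III, 18 of complex IV and 17 listed under complex V. Of these, 46 were among the 13901 genes with enough counts to be tested. The other 2, Cox7b2 and Cox8c, which are testis isoforms, had 0 counts in every tumor. A count of 0 allows up to 3 counts, which was 0.106 to 0.189 counts per 1000000 (CPM) depending on the tumor, for counting error only.

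RNA came from tumors that bEnd.3 cells formed in male athymic Nu/Nu nude mice. bEnd.3, a single established line of mouse brain endothelial cells that carry the polyoma middle T oncogene, served as a model of infantile hemangioma. The cells were placed in the right flank. The hosts were then injected intraperitoneally with R-propranolol, the enantiomer with little beta blocker activity, in 5 cases, or with the ethanol vehicle in 4 cases. Each tumor was sequenced as 1 library, and whole tumor tissue was used, so host cells were part of every sample.

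Gene counts ran from 20599904 to 24949010 per vehicle tumor and from 21084749 to 27852630 per R-propranolol tumor. R-propranolol replicate 5 stood apart from the others. Across genes, its log2 CPM gave an r of 0.678 to 0.790 against each of the remaining 8, which among themselves gave 0.897 to 0.988. A list of 20 skeletal muscle genes held 16.4% of its counts, and 0.00407% to 0.0634% of those of the other tumors. Comparisons between the groups are therefore given with and without this tumor. The endothelial list was present in every tumor, at 462 to 956 CPM summed over its 10 genes. In R-propranolol replicate 5, Tie1 stood below every other tumor, at 60.0 against 150 to 205 CPM. Kdr, Tek and Cldn5 stood above every other tumor there, and the rest of the list lay within the range of the others. In bulk tissue, fewer cells of a type and less RNA per cell cannot be told apart.

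Complex IV is the enzyme that transfers electrons to oxygen, and several of its small nuclear subunits exist in a general and a heart and skeletal muscle isoform encoded by separate genes. The muscle isoforms were Cox6a2, Cox7a1 and Cox8b, and their general counterparts were Cox6a1, Cox7a2 and Cox8a. Cox7a1 and Cox8b are also known from brown fat. The 6 genes lie apart in the GRCm38 build: Cox6a2 at chr7:128205435-128206387, Cox7a1 at chr7:30184144-30186078, Cox8b at chr7:140898945-140900446, Cox6a1 at chr5:115345642-115348981, Cox7a2 at chr9:79755361-79759878 and Cox8a at chr19:7215153-7217616. Of their 100-base stretches, 1.48% of those of Cox6a1 and 0% of those of the other 5 were also found in another gene. Exons of Cox6a2 share 70 bases with Itgad on the opposite strand.

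General respiratory genes are known to be bound by NRF1 and GABPA, and muscle genes by E-box and MEF2 factors. The 250 bases before the annotated start are shown for 5 of the 6 genes, from RefSeq on GRCm38.p6. The pairs were chosen because their muscle isoforms carry the largest differences between tumors below. No promoter in the set used matched Cox6a2, so it is not shown. Capitals mark the motifs searched on both strands: the NRF1 motif by its name, CCGGAAG (ETS, including GABPA), AAGATGGCG (YY1), GGGCGG (Sp1), TATAAA of the core promoter, CAGCTG (E-box) and the MEF2 motif, also by name. Cox6a1 has matches for NRF1, ETS and Sp1, Cox7a2 has 1 Sp1 match, Cox8b has an E-box, and Cox7a1 and Cox8a hold none of these letters. The windows are chr5:115348959-115349208 (minus strand) for Cox6a1, chr9:79759854-79760103 (minus strand) for Cox7a2, chr19:7217617-7217866 (minus strand) for Cox8a, chr7:30183921-30184170 (plus strand) for Cox7a1 and chr7:140900447-140900696 (minus strand) for Cox8b.
Cox6a1: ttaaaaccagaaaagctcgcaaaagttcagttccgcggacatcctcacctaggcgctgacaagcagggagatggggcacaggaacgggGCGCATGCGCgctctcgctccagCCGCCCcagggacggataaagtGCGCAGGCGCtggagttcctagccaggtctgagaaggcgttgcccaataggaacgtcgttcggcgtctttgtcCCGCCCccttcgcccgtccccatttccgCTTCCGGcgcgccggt
Cox7a2: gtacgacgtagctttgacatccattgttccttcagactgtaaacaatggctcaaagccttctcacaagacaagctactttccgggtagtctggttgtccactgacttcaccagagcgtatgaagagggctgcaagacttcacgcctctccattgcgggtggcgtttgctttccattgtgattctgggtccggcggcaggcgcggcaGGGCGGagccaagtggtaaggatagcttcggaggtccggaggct
Cox8a: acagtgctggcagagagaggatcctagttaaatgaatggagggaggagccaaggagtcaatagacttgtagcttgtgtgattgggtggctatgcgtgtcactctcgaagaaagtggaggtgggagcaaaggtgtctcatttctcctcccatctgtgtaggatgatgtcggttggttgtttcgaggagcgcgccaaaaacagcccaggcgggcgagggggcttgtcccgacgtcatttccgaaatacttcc
Cox7a1: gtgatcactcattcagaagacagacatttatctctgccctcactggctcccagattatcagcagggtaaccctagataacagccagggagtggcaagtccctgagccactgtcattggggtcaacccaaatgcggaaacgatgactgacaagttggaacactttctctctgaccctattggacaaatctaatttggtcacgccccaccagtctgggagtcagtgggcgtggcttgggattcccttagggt
Cox8b: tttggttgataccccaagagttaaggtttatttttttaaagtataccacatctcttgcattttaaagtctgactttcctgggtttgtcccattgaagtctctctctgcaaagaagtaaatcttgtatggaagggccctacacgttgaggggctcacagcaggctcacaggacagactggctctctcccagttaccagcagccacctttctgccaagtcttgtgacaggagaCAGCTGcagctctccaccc

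Across the subunit genes, 37 of the 48 symbols matched 41 RefSeq promoters. The NRF1 motif was in 7 of the 41 windows (17.07%), against 3.74% of all 32851 windows of the same length. The ETS motif was in 9 (21.95%), against 6.91%. These letters were thus more common before subunit genes than before genes in general. YY1 letters were in 2 windows (4.88% against 0.61%), Sp1 letters in 12 (29.27% against 32.74%), TATAAA in 2 (4.88% against 12.37%), the E-box in 2 (4.88% against 13%) and the MEF2 motif in 0 (against 2.92%). Sp1 and NRF1 or ETS matches could lie in the same window, and a match describes letters only.

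The muscle isoforms were low in 8 tumors, at 0 to 3.94 CPM, and abundant in 1. Cox6a2 had 41, 13, 44 and 4 counts in the 4 vehicle tumors and 17, 13, 2, 12 and 9604 counts in R-propranolol replicates 1 to 5. Cox8b had 24, 15, 26 and 3 counts in the vehicle tumors and 4, 3, 4, 0 and 4728 in the R-propranolol tumors. Cox7a1 had 66, 87, 46 and 83 counts in the vehicle tumors and 66, 54, 94, 62 and 3374 in the R-propranolol tumors. For all 3 genes, R-propranolol replicate 5 was the high tumor and the remaining R-propranolol tumors lay within or below the vehicle range in CPM. In CPM, replicate 5 stood 868-fold above the mean of the other 8 tumors for Cox6a2, 788-fold for Cox8b and 80.2-fold for Cox7a1.

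Of the general counterparts, Cox6a1 and Cox8a were not highest in R-propranolol replicate 5. Cox7a2 was, at a far smaller ratio than Cox7a1. Cox6a1 had 5501, 6822, 6311 and 5358 counts in the vehicle tumors and 6647, 5852, 6661, 5170 and 3240 in the R-propranolol tumors. In CPM, R-propranolol replicate 5 stood at 0.90 times the mean of the other 8 for Cox6a1, 0.996 times for Cox8a and 2.44 times for Cox7a2. Cox8a had 3366, 3854, 3855 and 3741 counts in the vehicle tumors and 4178, 3585, 4971, 3452 and 2313 in the R-propranolol tumors. Cox7a2 had 1250, 1521, 1753 and 1559 counts, then 1846, 1276, 1801, 1327 and 2256. Scaling mattered for this tumor: by library size alone the ratios were 0.65 for Cox6a1 and 0.72 for Cox8a, below every other tumor, and 1.77 for Cox7a2.

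**Figure D1:**
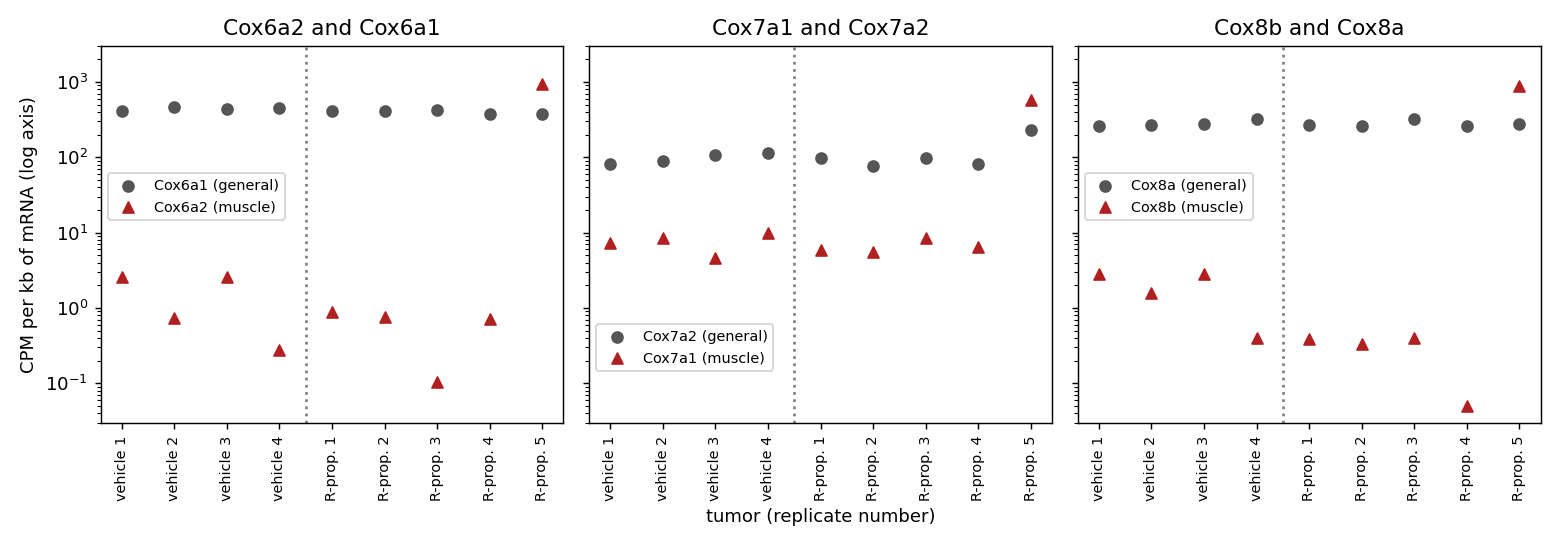
Levels of each muscle isoform (red triangles) and its general counterpart (grey circles) in every tumor, in CPM per kilobase of mRNA on a log axis, with the 4 vehicle tumors left of the dotted line and the 5 R-propranolol tumors right of it. A value of 0 is drawn at 0.05. The muscle isoform lies above the general one in R-propranolol replicate 5 and below it in the other 8 tumors.

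Per length of mRNA, the muscle isoform was the larger member of each pair in R-propranolol replicate 5. Cox6a2 made up 71.3% of its pair in that tumor, against 0.0252% to 0.622% in the other 8. Cox8b made up 75.7%, against 0% to 1.08%. Cox7a1 made up 71.5%, against 4.21% to 8.75%. As plain shares of counts in that 1 tumor, these were 74.8% (Wilson 95% interval 74.0% to 75.5%) for Cox6a2, 67.1% (66.0% to 68.2%) for Cox8b and 59.9% (58.6% to 61.2%) for Cox7a1. Each pair summed to more RNA there, by 3.12-fold for Cox6a, 7.96-fold for Cox7a and 4.09-fold for Cox8 over the mean of the other 8 tumors.

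The log2 ratio of muscle to general isoform, with 0.5 counts added to each, was compared between groups by a two-sided exact permutation test over all splits of the 9 tumors. The smallest p this design allows is 0.00794. The ratio of Cox6a2 to Cox6a1 was -8.35 ± 1.53 in vehicle tumors (SD, n = 4) and -7.17 ± 5.02 in R-propranolol tumors (SD, n = 5), a difference of 1.18 (exact p = 0.857, adjusted over the 3 pairs 0.992). For Cox7a1 to Cox7a2 the means were -4.45 ± 0.52 and -3.49 ± 2.28, a difference of 0.97 (exact p = 0.714, adjusted 0.992). For Cox8b to Cox8a they were -8.08 ± 1.38 and -8.34 ± 5.37, a difference of -0.26 (exact p = 0.992, adjusted 0.992). Each difference was smaller than the SD among the R-propranolol tumors, which include replicate 5. The Cox7a1 difference was larger than the SD among the vehicle tumors.

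Without R-propranolol replicate 5, all 3 differences were negative. They were -1.001 for Cox6a2 (exact p = 0.429, adjusted 0.643), -0.05 for Cox7a1 (exact p = 0.857, adjusted 0.857) and -2.60 for Cox8b (exact p = 0.0857, adjusted 0.257), and the smallest p that 4 against 4 tumors allow is 0.0286. In the Cox8b ratio, 3 of the 4 vehicle tumors lay above all 4 remaining R-propranolol tumors, and vehicle replicate 4 lay among them. Leaving out vehicle replicates 1 and 3 as well gave 0.25 for Cox6a2, -0.33 for Cox7a1 and -1.67 for Cox8b.

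Skeletal muscle RNA was highest in the tumors with the most Cox6a2 and Cox8b. The summed level of the 20 muscle genes was 578, 64.2, 559 and 67.0 CPM in the vehicle tumors, 65.0, 42.1, 67.7 and 56.6 CPM in R-propranolol replicates 1 to 4 and 230244 CPM in replicate 5. Of these genes, Eno3 stood at 57.4, 51.9, 39.8 and 56.3 CPM in the vehicle tumors and 29.9 to 57.5 CPM in R-propranolol replicates 1 to 4. It gave most of the sum in vehicle replicates 2 and 4 and in R-propranolol replicates 1 to 4. All 20 genes had counts in vehicle replicates 1 and 3 and in R-propranolol replicate 5, and 2 to 6 of the 20 were at 0 in each of the other tumors. Acta1, the skeletal muscle actin, had 2092, 3, 3002 and 3 counts in the vehicle tumors and 44, 19, 3, 6 and 635351 in the R-propranolol tumors. Vehicle replicates 1 and 3 were thus the high vehicle tumors for muscle genes as well as for Cox6a2 and Cox8b. Cox7a1 did not follow, with 2.84 and 1.83 CPM in those tumors and 3.35 and 3.94 CPM in vehicle replicates 2 and 4. Among the remaining tumors, Cox6a2 and Cox8b differed at like sums of muscle genes. Vehicle replicate 2 and R-propranolol replicate 3, at 64.2 and 67.7 CPM of muscle genes, had 0.58 and 0.14 CPM of Cox8b. For Cox6a2 they had 0.50 and 0.07 CPM.

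Fat markers also differed in R-propranolol replicate 5. The 12 adipocyte genes summed to 6501 CPM there and to 171 to 563 CPM in the other tumors. The 6 brown adipocyte genes summed to 75.0 CPM there and to 0.142 to 1.81 CPM elsewhere. Ucp1, the defining gene of brown fat, had 19 counts in that tumor and 0 to 8 in the others. The 7 cardiac genes stayed low, at 12.2 CPM against 1.60 to 5.60 CPM. The part of muscle and fat RNA in the subunit levels was not tested.

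**Figure D2:**
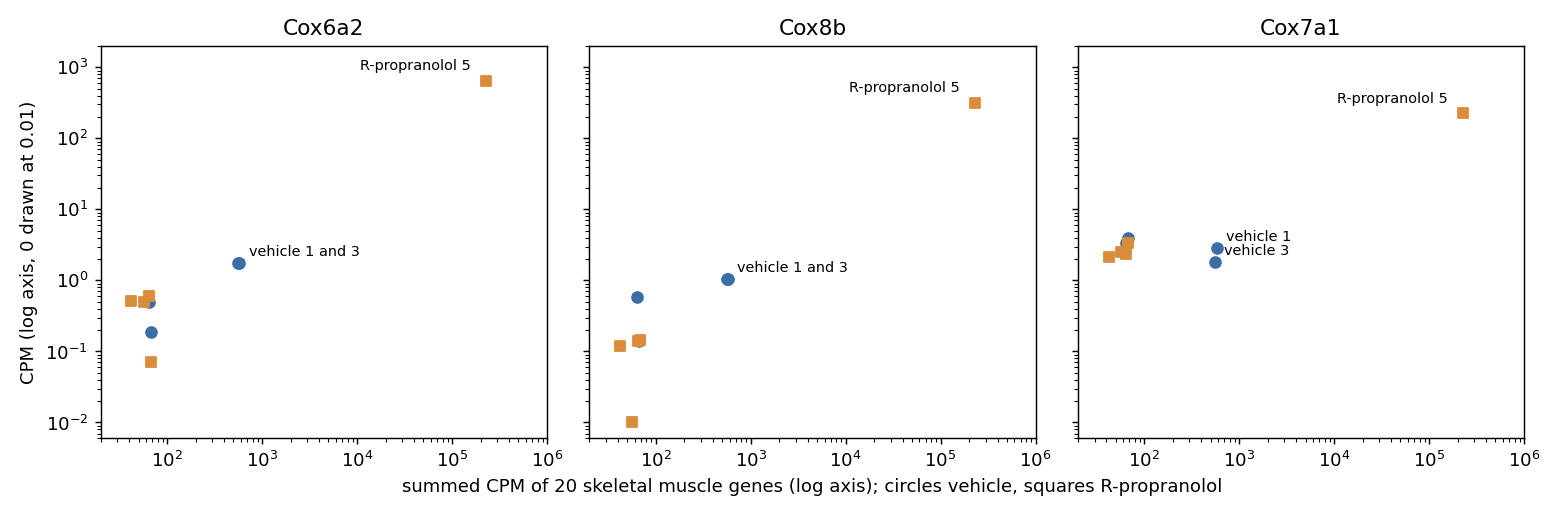
CPM of Cox6a2, Cox8b and Cox7a1 (vertical, log axis, 0 drawn at 0.01) against the summed CPM of 20 skeletal muscle genes (horizontal, log axis) in each tumor, with circles for vehicle and squares for R-propranolol. Vehicle replicates 1 and 3, at 578 and 559 CPM of muscle genes, are the highest of the 8 low tumors for Cox6a2 and Cox8b but not for Cox7a1. In the rest of the low tumors, most of the muscle gene sum is Eno3.

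The other complex IV genes with a restricted isoform were low in all tumors. Cox4i2, the isoform of subunit 4 known from lung and vessel wall cells, had 29, 20, 18 and 15 counts in the vehicle tumors and 35, 100, 25, 18 and 15 in the R-propranolol tumors. R-propranolol replicate 2 was its high tumor, at 4.0 CPM against 0.71 to 1.25 CPM in the other 8. The mural cell genes other than Des were also high in that tumor. Des, at 32.9 CPM, lay within the 18.1 to 67.4 CPM of the other tumors apart from replicate 5. Rgs5, a pericyte marker, stood at 67.8 CPM there, 83.7 CPM in R-propranolol replicate 5 and 7.29 to 16.4 CPM in the remaining tumors. In replicates 2 and 5, Cspg4 (15.7 and 44.1 CPM) and Myh11 (12.2 and 23.7 CPM) were likewise higher in replicate 5. Acta2 (96.7 and 35.7 CPM) and Pdgfrb (155 and 50.9 CPM) were higher in replicate 2. The summed mural list read 381 CPM in replicate 2 and 110 to 202 CPM in the other tumors apart from replicate 5, where it read 8931 CPM, of which Des, also a muscle gene, gave 8693 CPM. The sums of the fibroblast list (31174 against 5216 to 15491 CPM), the endothelial list (956 against 462 to 675 CPM) and the macrophage list (2091 against 530 to 1960 CPM) were highest in replicate 2. Not every member was highest there. Lum, Dcn, Kdr, Tek, Cldn5, Csf1r and Adgre1 were highest in replicate 5, Tie1 in R-propranolol replicate 3 and Aif1 in vehicle replicate 1. The part of these lists in the Cox4i2 level was not tested. The log2 fold change of Cox4i2 was 0.87 ± 0.55 (SE) with 9 tumors, 0.98 ± 0.56 without replicate 5 and 0.17 ± 0.31 without replicate 2. Cox6b2, a testis isoform of subunit 6b, stood at 0.08 to 1.20 CPM in the 9 tumors.

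The subunit genes as a whole took a like share of the counts in 8 tumors and a larger one in the ninth. The 48 genes held 0.612%, 0.589%, 0.609% and 0.650% of gene counts in the vehicle tumors and 0.588%, 0.520%, 0.610%, 0.591% and 1.66% in R-propranolol replicates 1 to 5. By complex, the summed level in replicate 5 was 1999 CPM against 430 to 494 CPM in the other 8 for complex II, a 4.29-fold difference from their mean. It was 3742 against 717 to 860 CPM for complex III (4.82-fold), 5414 against 1414 to 1740 CPM for complex IV (3.48-fold) and 12048 against 2763 to 3266 CPM for complex V (4.07-fold). Without the 3 muscle isoforms, the complex IV genes summed to 4237 against 1411 to 1736 CPM (2.73-fold). All 4 complexes thus stood higher in this tumor, complex III most and complex IV least.

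Gene by gene, R-propranolol replicate 5 stood above every other tumor for 43 of the 46 tested genes, where it did so for 36.5% of all genes tested. The 3 exceptions were Cox4i2, Cox6a1 and Cox8a, all of complex IV. Cox8b and Cox6b2, both counted among the 43, passed the count filter only with this tumor included. The median ratio of replicate 5 to the mean of the other 8 was 3.75 for the subunit genes and 0.96 for all genes. By library size alone, without the composition scaling, these medians were 2.72 and 0.70, with 41 of 46 subunit genes above every other tumor against 24.2% of all genes. This alternative was chosen after the data were seen.

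**Figure D3:**
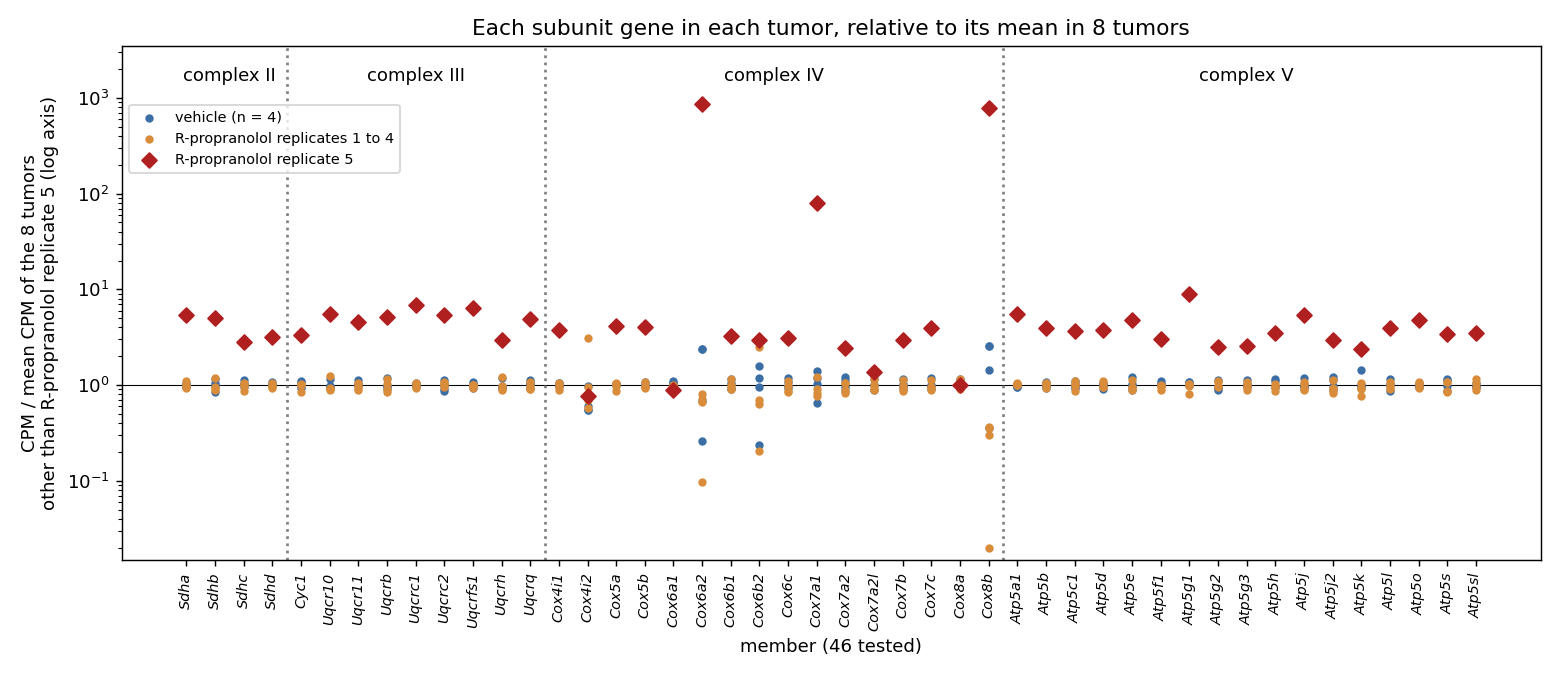
CPM of each of the 46 tested subunit genes in each tumor, divided by its mean over the 8 tumors other than R-propranolol replicate 5 (log axis), in order of complex. Red diamonds are replicate 5, blue points the 4 vehicle tumors and orange points R-propranolol replicates 1 to 4. The diamond lies above the other points for 43 genes, with a median of 3.75, and at 0.77, 0.90 and 0.996 for Cox4i2, Cox6a1 and Cox8a. Cox8b and Cox6b2 passed the count filter only with replicate 5 included.

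Within the complexes, the ratios of replicate 5 differed between subunits. In complex II they ran from 2.82 for Sdhc, a membrane anchor, to 5.41 for Sdha, the flavoprotein that oxidises succinate. In complex III they ran from 2.93 for Uqcrh to 6.93 for the core subunit Uqcrc1, with the Rieske iron-sulfur protein Uqcrfs1 at 6.36. In complex V the highest was Atp5g1 at 9.01, while Atp5g2 and Atp5g3 stood at 2.50 and 2.54. These 3 genes encode the same mature c subunit of the proton-carrying ring. The alpha subunit Atp5a1 and the catalytic beta subunit Atp5b stood at 5.54 and 3.97. In complex IV, apart from the muscle isoforms, the highest was Cox5a at 4.19, and Cox7a2l, a supercomplex factor related to Cox7a2, stood at 1.36.

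The comparison between treatments asked whether subunit genes changed with R-propranolol. With all 9 tumors, the quasi-likelihood test of edgeR called none of the 46 tested genes at a threshold of 0.05 (smallest adjusted p = 0.876), and 0% of all genes did. At an unadjusted p under 0.05, 2 subunit genes were higher, Cox6a2 and Cox7a1, and 0 were lower, against 2.01% and 0.288% of all genes (2.3% together). DESeq2 gave no p to 19 of the genes, Cox6a2, Cox7a1 and Cox8b among them, so its count higher does not bear on these, and it had 1 lower (Cox6a1). The count higher was 0 by limma-voom. No subunit gene had groups that did not overlap, against 0.633% of all genes higher and 0.626% lower (1.26% together). The means were higher in 44 of 46 genes, against 54.3% of all genes, with a median log2 fold change of 0.62 against 0.03. Cox8b and Cox6b2, both among the 44, passed the count filter only with replicate 5 included.

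Without R-propranolol replicate 5, the fold changes of most subunit genes were close to 0. Of the 44 genes then tested, 9 had higher and 35 lower means, where 46.3% of all genes were lower, and the median was -0.06 against 0.01 for all genes. Cox8b and Cox6b2 fell under the count filter. The edgeR fit called none of them (smallest adjusted p = 0.9995). At an unadjusted p under 0.05 there were 0 higher and 0 lower, against 2.65% and 1.13% of all genes (3.78% together). None had groups that did not overlap, against 1.77% of all genes higher and 1.09% lower (2.86% together). For the 40 genes with a mean of at least 5 CPM over these 8 tumors, the SE was 0.06 to 0.15 on the log2 scale. Their nominal 95% intervals, taken from the normal distribution, lay within -0.54 and 0.26. With so few tumors such intervals are too narrow. With all 9 tumors, the SEs of the same genes were 0.09 to 0.78.

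**Figure D4:**
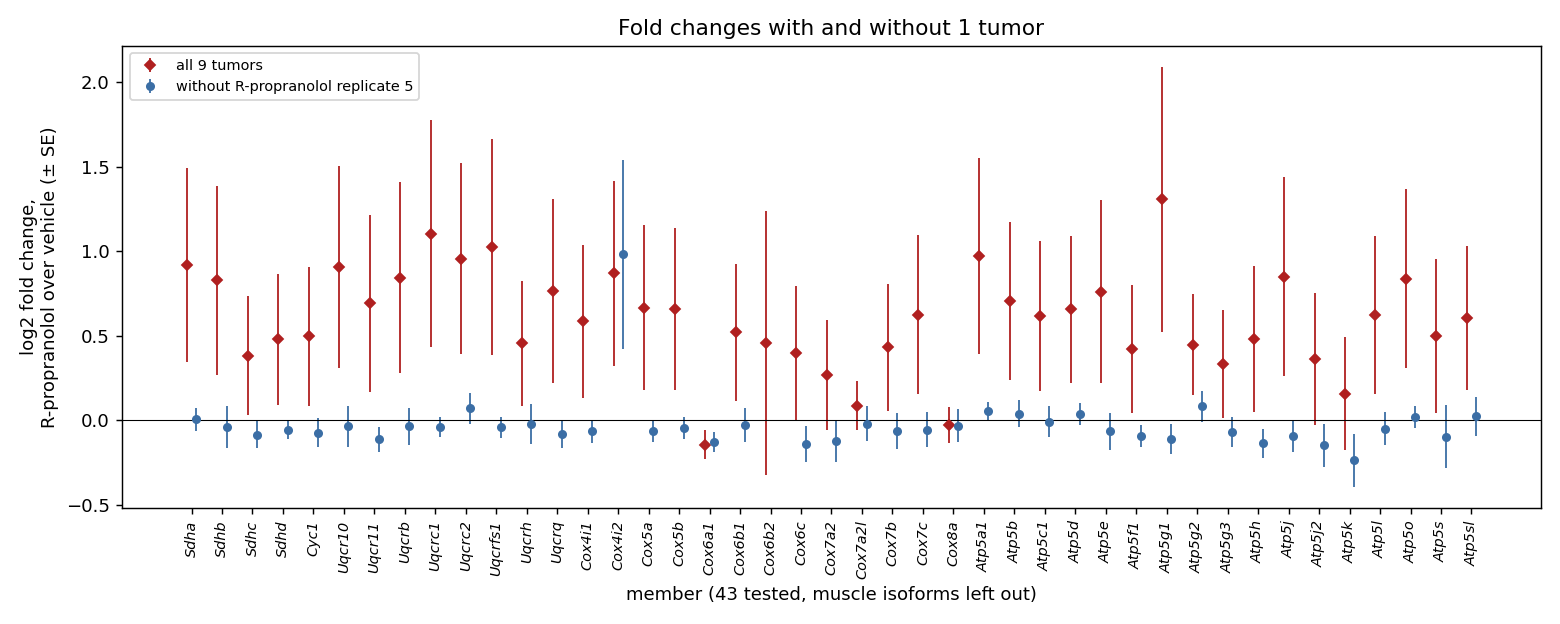
Log2 fold change of R-propranolol over vehicle (± SE) for 43 tested subunit genes, muscle isoforms left out, in the fit with all 9 tumors (red diamonds) and in the fit without R-propranolol replicate 5 (blue circles). With 9 tumors 41 of the 43 lie above 0, with a median of 0.62. Without replicate 5 all but Cox4i2 lie between -0.24 and 0.08, and Cox6b2 has no value.

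Complex II means differed little between the groups once replicate 5 was left out. Sdha, the most abundant gene of the complex, stood at 180, 169, 166 and 174 CPM in the vehicle tumors and 168, 163, 172, 191 and 934 CPM in the R-propranolol tumors. Its log2 fold change was 0.92 ± 0.57 (SE) with 9 tumors and 0.01 ± 0.07 without replicate 5. The 4 genes had medians of 0.65 and -0.05 in the 2 fits. In complex III, Cyc1, which encodes cytochrome c1, stood at 165, 150, 143 and 170 CPM in the vehicle tumors and 153, 131, 155, 159 and 510 CPM in the R-propranolol tumors. Its log2 fold change was 0.50 ± 0.41 with 9 tumors and -0.07 ± 0.09 without replicate 5. The 9 genes had medians of 0.84 and -0.04.

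In complex IV, Cox4i1, the general isoform of subunit 4, stood at 250, 251, 269 and 270 CPM in the vehicle tumors and 228, 259, 268, 241 and 958 CPM in the R-propranolol tumors. Its log2 fold change was 0.59 ± 0.45 with 9 tumors and -0.07 ± 0.07 without replicate 5. Cox6b1, the general isoform of subunit 6b, stood at 98.8, 98.5, 112 and 123 CPM in the vehicle tumors and 98, 107, 123, 96.9 and 352 CPM in the R-propranolol tumors. Its log2 fold changes in the 2 fits were 0.52 ± 0.41 and -0.03 ± 0.10. Cox7b, the general isoform of subunit 7b, stood at 113, 121, 127 and 144 CPM in the vehicle tumors and 121, 106, 141, 115 and 368 CPM in the R-propranolol tumors, with log2 fold changes of 0.43 ± 0.38 and -0.06 ± 0.11. For all 3 genes replicate 5 was the high tumor, and the other R-propranolol tumors overlapped with the vehicle tumors. The muscle isoforms gave log2 fold changes of 6.91 ± 2.95 for Cox6a2, 6.48 ± 2.96 for Cox8b and 3.97 ± 1.72 for Cox7a1 with 9 tumors. Without replicate 5 these were -1.32 ± 0.78 for Cox6a2 and -0.20 ± 0.28 for Cox7a1.

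Cox6a1 and Cox8a were the 2 subunit genes with a lower mean in the fit with 9 tumors, and both were lower without replicate 5 as well. Cox6a1 encodes the general isoform of subunit 6a. The level of Cox6a1 was 237, 263, 250 and 254 CPM in the vehicle tumors and 235, 234, 239, 212 and 215 CPM in the R-propranolol tumors. The R-propranolol values lay at or below the lower end of the vehicle values, and replicate 3 overlapped with them. Its log2 fold change was -0.14 ± 0.09 with 9 tumors and -0.13 ± 0.06 without replicate 5, with an adjusted p of 0.9995 in edgeR. Cox7a2 read 0.27 ± 0.32 and -0.12 ± 0.13. Cox8a read -0.03 ± 0.11 and -0.03 ± 0.10.

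In complex V, Atp5b, the catalytic beta subunit, stood at 818, 828, 784 and 901 CPM in the vehicle tumors and 847, 794, 890, 896 and 3358 CPM in the R-propranolol tumors. Its log2 fold change was 0.70 ± 0.47 with 9 tumors and 0.04 ± 0.08 without replicate 5. Atp5a1, the alpha subunit, stood at 455, 446, 446 and 477 CPM in the vehicle tumors and 464, 477, 462, 491 and 2572 CPM in the R-propranolol tumors, with log2 fold changes of 0.97 ± 0.58 and 0.05 ± 0.06. Replicate 5 was again the high tumor, and the other tumors overlapped between groups. Atp5h, a stator subunit, stood at 98.8, 100, 115 and 121 CPM in the vehicle tumors and 99.1, 90.3, 106, 101 and 363 CPM in the R-propranolol tumors, with log2 fold changes of 0.48 ± 0.43 and -0.14 ± 0.09. Atp5g2 stood at 104, 107, 107 and 133 CPM in the vehicle tumors and 111, 125, 129, 115 and 291 CPM in the R-propranolol tumors, with log2 fold changes of 0.45 ± 0.30 and 0.08 ± 0.09. In both genes the groups overlapped apart from replicate 5. The 17 genes had medians of 0.62 and -0.07. Atp5s and Atp5sl, which the symbol rule brought in, are not core subunits of the enzyme and stood at 2.75 to 12.2 CPM in the 8 tumors.

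Per length, the genes of one complex differed in level. In vehicle tumors, the mean level in complex IV was highest for Cox6a1 at 440 ± 19.1 CPM per kilobase (SD, n = 4), then Cox4i1 at 340 ± 14.2 and Cox8a at 284 ± 26.9, against 7.61 ± 2.28 for Cox7a1, 1.93 ± 1.19 for Cox8b and 1.54 ± 1.21 for Cox6a2. The ranges of Cox6a1, Cox4i1 and Cox8a did not overlap, although Cox8a reached 323 and Cox4i1 began at 327. Those of Cox8b and Cox6a2 overlapped. In complex V, Atp5b stood highest at 435 ± 25.6 CPM per kilobase. In complex II the means ran from 38.4 for Sdhc to 82.9 for Sdhb, and in complex III from 42.4 for Uqcrc2 to 164 for Uqcrh.

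Among the 8 tumors other than replicate 5, the spread of the subunit genes was small. The coefficient of variation of CPM over these 8 tumors ran from 3.44% for Atp5a1 to 19.3% for Atp5k, with a median of 8.77% over the 40 genes with a mean of at least 5 CPM. Vehicle replicate 4 was the highest of the 8 for 25 of these genes and R-propranolol replicate 3 for 6. R-propranolol replicate 2 was the lowest for 18 and replicate 4 for 10. Atp5k, a small subunit of the ATP synthase membrane part, stood at 71.8, 68.2, 74.0 and 106 CPM in the vehicle tumors and 66.7, 57.2, 78.1 and 69.2 CPM in R-propranolol replicates 1 to 4, with vehicle replicate 4 above the rest.

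Shorter mRNAs varied more. Across the 39 genes with an annotated length, the coefficient of variation and the length had a Spearman rho of -0.56, given as a description, since genes share libraries and are not independent. For the 17 genes with mRNAs under 750 bases, vehicle replicate 4 stood at a median of 1.19 times the mean of the other 7 tumors. For the 11 genes of at least 1500 bases it stood at 1.10 times. R-propranolol replicate 3 stood at 1.11 and 1.02 times in these 2 sets. Both tumors thus stood further above the rest for short than for long mRNAs, a difference that was not tested.

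**Figure D5:**
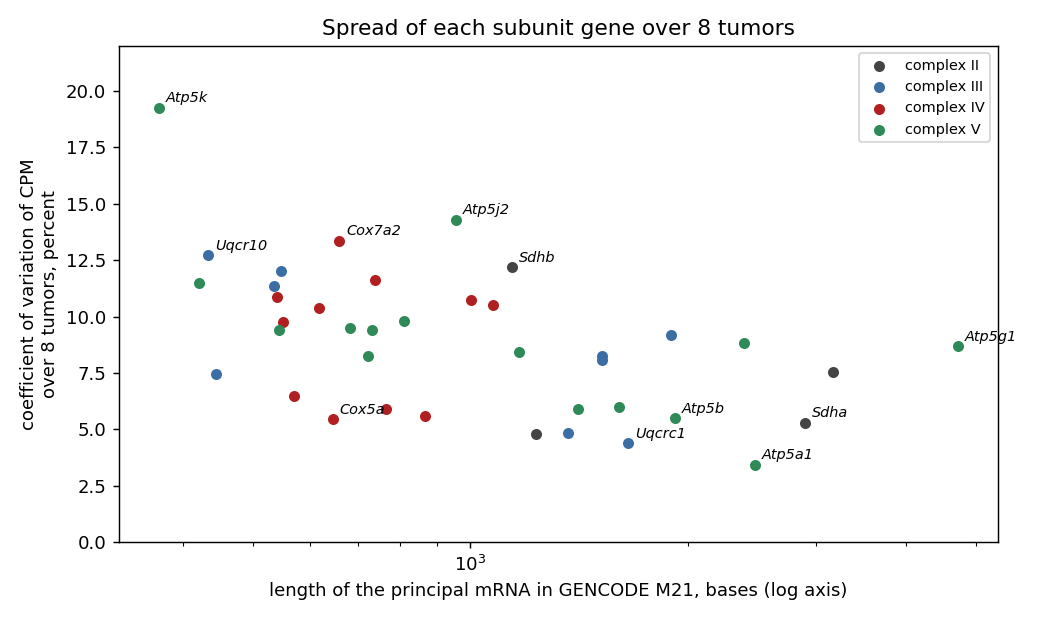
Coefficient of variation of CPM over 8 tumors, R-propranolol replicate 5 left out (vertical, percent), against the length of the principal mRNA (horizontal, bases, log axis), for 39 subunit genes coloured by complex. The highest value is Atp5k at 19.3% and the lowest Atp5a1 at 3.44%.

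Genes that work beside the complexes were read in the same way, with no list tested as a whole. Of the electron carriers, inhibitor and associated subunits, 6 of 7 were tested, and 5 had higher and 1 lower means with 9 tumors (median log2 fold change 0.66). Cycs, which encodes cytochrome c, stood at 65.5 to 79.8 CPM in the vehicle tumors, 61.8 to 77.4 CPM in R-propranolol replicates 1 to 4 and 481 CPM in replicate 5. Atpif1, the inhibitor of ATP synthase, stood at 64.5 to 71.2, 56.1 to 71.0 and 51.5 CPM, and was lower in replicate 5 than in any other tumor. Without replicate 5, all 6 had lower means (median -0.11), and Ndufa4, a complex IV subunit once listed under complex I, passed the unadjusted threshold at -0.19 ± 0.08 (adjusted p in edgeR 0.9995). In that fit 1.13% of all genes passed it on the lower side.

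Of the assembly factors of complexes II to V, 35 of 37 were tested. With 9 tumors 30 had higher means, with a median of 0.19, and without replicate 5 the counts were 8 higher and 27 lower, with a median of -0.08. None passed an unadjusted p of 0.05 in either fit by edgeR, against 2.3% of all genes with 9 tumors and 3.78% without replicate 5. The 2 with the smallest p, Uqcc3 and Lyrm7, both complex III assembly factors, read 0.97 ± 0.57 and 1.58 ± 0.96 with 9 tumors, and 0.16 ± 0.24 and -0.096 ± 0.38 without replicate 5. Replicate 5 stood at a median of 2.10 times the other 8 for this list, against 3.75 for the subunits. Of the 14 tricarboxylic acid cycle genes, 13 had higher means with 9 tumors (median 0.64) and 6 without replicate 5 (median -0.02). Idh3a read 1.25 ± 0.71 and 0.03 ± 0.11, and Ogdh read 1.12 ± 0.68 and -0.04 ± 0.07. Again 0 passed an unadjusted p of 0.05 in either fit by edgeR.

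Of the regulators of nuclear respiratory genes, 17 of 19 were tested, and 13 had higher means with 9 tumors (median 0.20). Without replicate 5, 12 of 16 had higher means (median 0.13). Yy1, a zinc finger factor bound at many respiratory promoters, stood at 83.4, 85.5, 81.2 and 88.3 CPM in the vehicle tumors and 94.7, 98.2, 99.5, 96.2 and 96.4 CPM in the R-propranolol tumors. The groups did not overlap, as for 0.633% of all genes in that direction, and the log2 fold change was 0.20 ± 0.07, past the unadjusted threshold only (adjusted p in edgeR 0.876). With 9 tumors, 2.01% of all genes passed that threshold on the higher side. The log2 fold change of Yy1 was 0.20 ± 0.05 without replicate 5. Mef2d, a muscle and neuron transcription factor, read 0.37 ± 0.14 (adjusted p in edgeR 0.876), again past the unadjusted threshold only, and 0.24 ± 0.08 without replicate 5. Ppargc1a, the coactivator that drives mitochondrial gene expression, stood at 10.03, 9.13, 6.35 and 14.4 CPM in the vehicle tumors and 12.5, 5.88, 19.4, 14.4 and 29.6 CPM in the R-propranolol tumors, a log2 fold change of 0.71 ± 0.44, and of 0.39 ± 0.37 without replicate 5. The mitochondrially encoded subunits were not analysed here.

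Some subunit genes have near copies elsewhere in the genome, and reads that fit several places were not counted. Of the 100-base stretches of the transcripts, 86.4% were also found in other genes for Atp5g2, 61.4% for Atp5l, 44.4% for Cox7c and 29.5% for Atp5h, so the levels of these 4 are uncertain. In all, 11 genes had any such stretch, and 8 shared exon bases with a gene on the opposite strand. Reads with several alignments made up 7.86% of the reads listed for R-propranolol replicate 5 and 3.46% to 3.99% of those for the other tumors.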

How the data were processed

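RNA from frozen tumors was sequenced as paired reads on an Illumina instrument, 1 library per tumor. Per the labels and the submitters' processing notes, the authors used STAR, HTSeq and the mm10 genome build; the sources used here name no versions and no strand setting. The deposited table holds raw counts per gene, not normalized, with 5 HTSeq summary lines that were kept out of library sizes and tests.

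Groups came from the treatment label. The labels say nothing of the animals beyond strain, so p-values measure the spread between these tumors. Genes were filtered with filterByExpr (minimum count 10, minimum total 15), scaled by TMM and tested with edgeR 4.0.16's quasi-likelihood test in R 4.3.3, with Benjamini-Hochberg adjustment over all genes tested. SE is the log2 fold change divided by the root of F. CPM use TMM-scaled library sizes. DESeq2 1.42.0 and limma 3.58.1 served as alternatives, beside other scalings and filters, summed vehicle replicates 1 and 2 (whose titles share a number), left-out tumors and a replicate block. Isoform ratios were compared by exact permutation. Scripts were tested on simulated data. Lengths and places came from GENCODE M21 (GRCm38), which has 1 place for 47 of the 48 genes, and lengths were those of the principal mRNA. Intervals of fold changes come from the SE between tumors and the normal distribution. With so few tumors they are narrower than true 95% intervals. Those of shares and the detection floor cover counting error only.

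The subunit genes, the other gene lists and the tests were chosen with earlier results of these data known. Members given by tumor were the isoform pairs, the restricted isoforms and their counterparts, the 3 smallest p-values in each direction in both fits, the most abundant gene of each complex, and genes whose groups do not overlap. Of each other list, the 2 smallest p-values and Ppargc1a were named. Atp5k, Atp5g1, Uqcrc1, Uqcrfs1 and the other genes named beside these were chosen after their values were seen.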

Additional observations from a re-analysis of the deposited data

Results flagged for a closer look

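In groups of 4 or 5 tumors, a value was singled out where its gap to the nearest other tumor, on the log2 scale, took up more of the group's range than Dixon's 95% critical value. This held for 47 of 92 groups of subunit gene values, and 41 of the 47 were R-propranolol replicate 5 on the high side. Cox8b, among the 41, passed the count filter only with this tumor included. Chance singles out about 1 in 20 independent groups, but these groups share the same libraries, so that rate is no baseline here. The same share over all genes was not taken. R-propranolol replicate 5 stood above every other tumor for 36.5% of all genes tested and below every other for 42.1%.

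In complex II, that tumor stood apart for Sdha (934 CPM), Sdhb (471 CPM), Sdhc (333 CPM) and Sdhd (259 CPM). In complex III, that tumor stood apart for Cyc1 (510 CPM), Uqcr10 (260 CPM), Uqcr11 (313 CPM), Uqcrb (284 CPM) and Uqcrc1 (709 CPM). It also stood apart for Uqcrc2 (442 CPM), Uqcrfs1 (430 CPM), Uqcrh (260 CPM) and Uqcrq (533 CPM). In complex IV, that tumor stood apart for Cox4i1 (958 CPM), Cox5a (359 CPM), Cox5b (537 CPM), Cox6a2 (639 CPM), Cox6b1 (352 CPM) and Cox6c (546 CPM). It also stood apart for Cox7a1 (224 CPM), Cox7a2 (150 CPM), Cox7b (368 CPM), Cox7c (464 CPM) and Cox8b (314 CPM). In complex V, that tumor stood apart for Atp5a1 (2570 CPM), Atp5b (3360 CPM), Atp5c1 (766 CPM), Atp5d (434 CPM), Atp5e (571 CPM) and Atp5f1 (613 CPM). It also stood apart for Atp5g1 (604 CPM), Atp5g2 (291 CPM), Atp5g3 (599 CPM), Atp5h (363 CPM), Atp5j (505 CPM) and Atp5j2 (375 CPM). It also stood apart for Atp5k (175 CPM), Atp5l (253 CPM), Atp5o (523 CPM), Atp5s (11.2 CPM) and Atp5sl (36.8 CPM).

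Vehicle replicate 4 stood apart on the high side for Atp5g2 (133 CPM), Sdhd (88.7 CPM), Uqcr10 (54.4 CPM) and Uqcrh (104 CPM). For Cox4i2, vehicle replicate 1 (1.25 CPM) and R-propranolol replicate 2 (4.0 CPM) stood apart on the high side. In the summary lines that no comparison uses, reads with several alignments were 7.86% of the reads listed for R-propranolol replicate 5, above each vehicle tumor.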

How the results depend on the processing

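No subunit gene passed an adjusted p of 0.05 under any alternative run. Over all genes, 0 passed in edgeR and limma, and 2 passed in DESeq2 (Dusp1 and Egr1, named after their values were seen). The number of subunit genes higher at an unadjusted p, 2 as reported, was 1 by library size alone and 1 with a filter of 1 CPM in 4 tumors. It was 0 in DESeq2, which gave no p to Cox6a2, Cox7a1 and Cox8b while their log2 fold changes stayed at 6.98, 4.01 and 6.54. It was also 0 in limma-voom with and without quality weights, and with vehicle replicates 1 and 2 summed, and 0 to 3 with single tumors left out: 0 without any 1 vehicle tumor or R-propranolol replicate 5, and 3 without any other R-propranolol tumor. The number lower, 0 as reported, was 1 in DESeq2 (Cox6a1) and 2 with quality weights (Cox6a1 and Cox8b). In edgeR, 2.3% of all genes passed the unadjusted threshold with 9 tumors, and 3.78% without R-propranolol replicate 5. The shares of all genes in the other runs are not given here. By library size alone the median over all genes moved from 0.03 to -0.10, and that of the subunit genes from 0.62 to 0.37.

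R-propranolol replicate 5 decided the median log2 fold change of the subunit genes, which was -0.056 without it, -0.036 with quality weights and -0.056 to 0.82 over single tumors left out. The other reversals with quality weights were -0.77 for Cox6a2, -0.20 for Cox7a1, -2.48 for Cox8b, -0.56 for Cox6b2, -0.095 for Cox4i1, -0.025 for Cox6b1, -0.011 for Cox7b, -0.069 for Atp5h and -0.0047 for Cyc1. In limma-voom without weights Cox8b read -0.71, Cox6a2 0.55, Cox7a1 0.79 and the subunit median 0.35. With 1 tumor left out, the values ran from -1.32 to 7.37 for Cox6a2, -0.20 to 4.38 for Cox7a1, -0.12 to 0.41 for Cox7a2, -0.07 to 0.77 for Cox4i1, -0.03 to 0.70 for Cox6b1, -0.06 to 0.59 for Cox7b, -0.14 to 0.65 for Atp5h and -0.07 to 0.66 for Cyc1, each lowest without R-propranolol replicate 5, and up to 0.037 for Cox8a. Cox4i2 read 0.17 without R-propranolol replicate 2. They reached 0.58 for Atp5g2 and 0.88 for Atp5b.

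The isoform ratio differences ran from -1.001 to 2.24 for Cox6a2, -0.048 to 1.30 for Cox7a1 and -2.60 to 0.84 for Cox8b with 1 tumor left out. With 2 counts added in place of 0.5, Cox8b read 0.20. Other causes of these changes were not tested.

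Leaving out vehicle replicates 1 and 3 with R-propranolol replicate 5, an alternative chosen after seeing the data, gave 0 genes at an unadjusted p and a median of -0.10. It turned the sign of Cox7a1 (-0.49), Cox7a2 (-0.18), Cox4i1 (-0.072), Cox6b1 (-0.069), Cox7b (-0.14), Atp5g2 (-0.0087), Atp5h (-0.16), Cyc1 (-0.10) and Atp5b (-0.018), and of the Cox7a1 ratio (-0.33). With the union of exons as length, also chosen later, the Cox7a1 share in replicate 5 was 64.8%.

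Groups share replicate numbers, but the labels do not say that these pair the tumors. The deviations of same-numbered tumors correlated at -0.283, 0.0879, -0.636 and 0.534, and those of differently numbered tumors at -0.56 to 0.713. Such deviations are centred within each group and cannot decide whether tumors were paired. In the fit with the replicate block, R-propranolol replicate 5 has no partner and adds nothing. The block gave 0 genes higher and 1 lower (Cox8b) at an unadjusted p, a median of -0.058, and -1.23 for Cox6a2, -0.18 for Cox7a1, -0.12 for Cox7a2, -2.72 for Cox8b, -0.19 for Cox6b2, -0.066 for Cox4i1, -0.028 for Cox6b1, -0.065 for Cox7b, -0.13 for Atp5h and -0.072 for Cyc1. The paired ratio differences were -1.001 for Cox6a2, -0.048 for Cox7a1 and -2.60 for Cox8b. Depth limits the muscle isoforms, at 0 to 94 counts in the 8 other tumors.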
